A study of Capra hircus with 10 samples.

Results

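Interleukins and their receptors were measured here in whole goat ovaries by total RNA sequencing. All protein-coding transcripts whose gene symbol begins with IL and a digit were taken, and their values were summed per symbol. The rule found 79 of the 20587 protein-coding gene symbols in the table, with 170 of the 43766 protein-coding transcripts. The ovaries came from Anhui white goats at a slaughterhouse, 5 of them luteal and 5 follicular in phase. Phase was the only labelled difference between the groups. No treatment, mutation, age or hormone level was given, and nothing states that the ovaries of a phase came from separate animals, so the tests measure only the spread between these ovaries. The unit is FPKM, the number of sequenced fragments scaled to transcript length and to the size of the library, and values per ovary are given in the order of replicates 1 to 5. Defining markers of the phases were checked first. STAR, which moves cholesterol into mitochondria for steroid synthesis, ranged from 2081 to 3245 FPKM over the luteal ovaries and from 12.1 to 25.7 over the follicular ones. Of the 8 tested luteal cell markers 7 were higher in luteal ovaries and 1 in follicular ones, and of the 10 granulosa cell markers 5 were higher in follicular ovaries and 1 in luteal ones.

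Interleukins are secreted proteins through which leukocytes, endothelium, stroma and other cells signal to each other. Most bind receptors that join a chain specific to the ligand with a chain shared by several ligands, such as gp130 (IL6ST), the common gamma chain (IL2RG) or the IL-1 receptor accessory protein (IL1RAP). Class I and II receptors signal through JAK kinases and STAT factors, while the IL-1 and IL-17 receptor families lead to NF-kappa-B. Decoy receptors and binding proteins take up ligand without passing on a signal. In the ovary, interleukins have been studied in ovulation and in the formation and regression of the corpus luteum, the progesterone-secreting gland that forms from the ovulated follicle. A symbol does not always state the role. IL4I1 is a secreted amino acid oxidase, and IL1RAPL2 belongs to the IL-1 receptor family but is known from synapses. IL2RB, IL1RAPL1, IL3, IL31, IL36A and IL36G were not analysed here.

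Of the 79 genes, 54 reached 0.1 FPKM in 5 or more of the 10 ovaries and were tested. Of these, 16 were higher in the luteal phase, 8 were higher in the follicular phase and 30 were not called at an adjusted p under 0.05. IL22RA1, 1 of the 8, passed the filter mainly through follicular ovaries. IL6, IL3RA, IL15RA, IL33, IL18 and IL2RA had the largest changes, all of them with higher luteal phase values, and IL11RA and IL25 had the largest in the other direction. The share called was 44.4% of the tested members, beside 43.7% of all 15359 tested genes, so the share itself is that of the background. By direction, 29.6% of the members were higher in the luteal phase, beside 15.9% of all genes, and 14.8% in the follicular phase, beside 27.8%. The phases did not overlap for 15 members, 11 of them higher in the luteal phase, while 28.4% of all tested genes had phases that did not overlap. The median log2 fold change, luteal minus follicular on log2(FPKM + 0.1), was 0.10 over the members and -0.14 over all genes. After the ovaries were shifted to a common median these medians were 0.19 and -0.054. The shift gave 19 members higher in luteal ovaries and 6 in follicular ones, as did quantile normalization. The luteal-higher share of all called genes was 36.3% as deposited and 48.8% after the shift, and that of the called members was 66.7% and 76.0%.

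**Figure D1:**
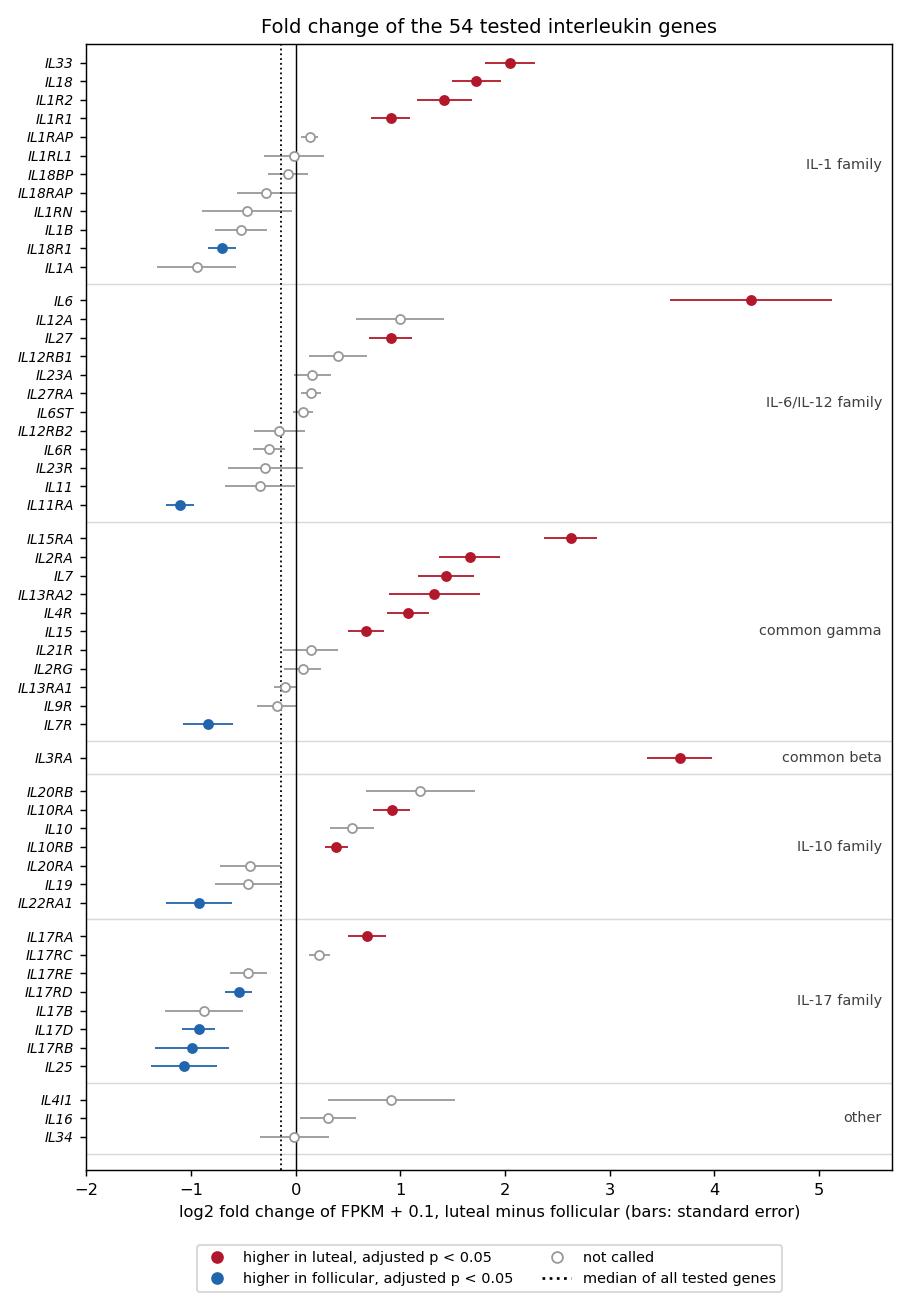
Log2 fold change (x axis, luteal minus follicular, on FPKM + 0.1) of the 54 tested genes, grouped by receptor family; points are estimates over 5 ovaries against 5, bars are standard errors, filled points passed an adjusted p under 0.05 and the dotted line is the median of all tested genes. Red marks the 16 genes called as higher in luteal ovaries and blue the 8 called as higher in follicular ones. IL6 at 4.35 and IL3RA at 3.67 lie farthest from 0.

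Many of these genes are made by leukocytes and endothelium, and in whole ovaries fewer cells of a type and less RNA per cell cannot be told apart. Of the markers of all leukocytes, 0 of 9 were called by limma and 0 had an unadjusted p under 0.05, and their summed level lay between 102 and 118 FPKM in luteal and between 75.9 and 160.3 in follicular ovaries. Follicular phase replicate 5 held the upper end. PTPRC, the CD45 antigen, was at 16.7 there and at most 12.5 in the other ovaries. CD53, CORO1A, LAPTM5, ITGB2 and ITGAL were also highest in that ovary, but CD48, LCP1 and SPI1 were highest in luteal ovaries. Summed T and NK cell and macrophage markers were the highest of the follicular phase there. Summed B cell and granulocyte and mast cell markers were the lowest of that phase. Of the 54 tested interleukin genes, 30 had their highest follicular phase value in the same ovary. Of the macrophage markers 6 of 13 were higher in luteal ovaries and 1 in the follicular phase (summed level between 326 and 432 FPKM in luteal and between 136 and 258 in follicular ovaries). For T and NK cells this was 1 and 1 of 16 (between 37.4 and 58.7 FPKM in luteal and between 40.8 and 83.2 in follicular ovaries), for B cells 0 and 1 of 7 (between 20.0 and 65.6 FPKM in luteal and between 21.3 and 36.0 in follicular ovaries), and for granulocytes and mast cells 1 and 4 of 6 (between 7.58 and 19.3 FPKM in luteal and between 20.7 and 57.5 in follicular ovaries). The B cell markers MS4A1 and PAX5 and the granulocyte marker MPO were below the filter. Endothelial markers were mostly higher in luteal ovaries, 11 of 12 (between 306 and 405 FPKM in luteal and between 175 and 213 in follicular ovaries). Stroma markers were divided, 3 higher and 3 lower in the luteal phase among 10 (between 3449.5 and 5757 FPKM in luteal and between 2698 and 3823 in follicular ovaries). The part of these cell types in the interleukin values was not tested.

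On the FPKM scale, which is per transcript length, receptor chains were more abundant than ligands. A mean over all ovaries of at least 1 FPKM was reached by 20 of the 36 receptor chains and by 9 of the 36 ligands. IL6ST, the signal chain shared by the IL-6 family, had the highest level of all members. It read 127, 128, 156, 141 and 148 FPKM in luteal ovaries against 112, 154, 142, 136 and 124 in follicular ovaries. The phases overlapped and no change was called (log2 fold change 0.073, standard error 0.10, limma adjusted p = 0.558). IL13RA1, which pairs with IL4R to bind interleukin-4 and interleukin-13, was second by the mean over all ovaries. Its values were 39.2, 33.0, 29.9, 27.6 and 25.8 FPKM in luteal ovaries against 31.9, 34.5, 32.2, 31.9 and 34.8 in follicular ovaries, again overlapping and not called (log2 fold change -0.10, standard error 0.10, limma adjusted p = 0.450). Luteal phase replicate 1 was the highest, and without luteal phase replicates 1 and 2 together the change was called (-0.25, limma adjusted p = 0.0304). IL10RB, IL33 and IL1R1 followed by the same mean, and all 3 were higher in luteal ovaries. IL33, the only ligand of this group, had a mean of 36.4 ± 5.65 FPKM in luteal and 9.24 ± 3.91 in follicular ovaries (mean ± SD, n = 5 each). Its luteal mean was below only that of IL6ST, while its follicular mean was also below those of IL27RA, IL11RA and IL17RA. The ranges of IL13RA1, IL10RB and IL33 over the luteal ovaries overlapped, so their order there was within the spread. IL27RA, the specific chain for interleukin-27, was the sixth by the mean over all ovaries. Its luteal mean was below that of IL15RA, and its follicular mean was above those of IL1R1 and IL33. It read 20.4, 18.8, 14.4, 16.4 and 16.4 FPKM in luteal ovaries against 14.8, 15.3, 17.4, 15.8 and 14.4 in follicular ovaries, overlapping and not called (log2 fold change 0.15, standard error 0.10, limma adjusted p = 0.247).

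**Figure D2:**
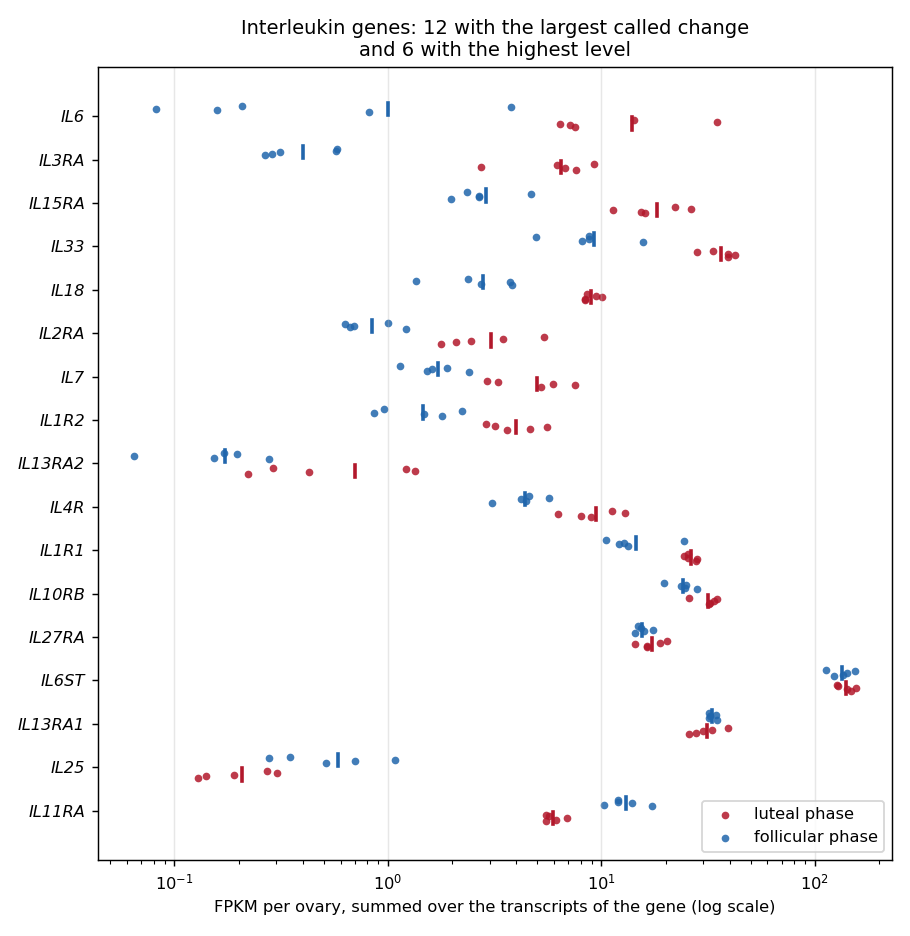
FPKM per ovary (x axis, log scale) of the 12 called members with the largest change and the 6 with the highest level, IL33 being in both sets; each point is 1 ovary, red for luteal and blue for follicular phase, and vertical strokes are means of 5 ovaries. IL6 spreads over the widest range, with follicular phase values from 0.0817 to 3.75, while IL6ST stays between 112 and 156 in both phases.

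Of 12 tested genes of the IL-6 and IL-12 family 2 were higher in luteal and 1 in follicular ovaries (16.7% and 8.33%, beside 15.9% and 27.8% of all tested genes). The gp130 ligands IL6, a cytokine of inflammation and of the acute phase response, and OSM had the largest changes of the gp130 genes described here. IL6 read 14.2, 34.6, 6.39, 7.16 and 7.51 FPKM in luteal ovaries against 0.207, 3.75, 0.0817, 0.159 and 0.819 in follicular ovaries. Every luteal phase ovary lay above every follicular phase ovary, but the spread within each phase was wide, with replicate 2 the highest of either (log2 fold change 4.35, standard error 0.78, limma adjusted p = 0.00119). Without luteal phase replicate 2 the log2 fold change was 3.94, and without follicular phase replicate 2 it was 5.05. Its specific receptor chain IL6R was not called, with 6.60, 5.59, 6.32, 5.59 and 8.29 FPKM in luteal ovaries against 8.87, 6.52, 7.49, 6.11 and 9.98 in follicular ovaries (log2 fold change -0.25, standard error 0.15, limma adjusted p = 0.199). IL11, a ligand that also signals through gp130, stayed near the filter from 0.0316 to 0.339 FPKM over the luteal ovaries and from 0.113 to 0.317 over the follicular ones (log2 fold change -0.34, standard error 0.33, limma adjusted p = 0.426). The specific receptor of that ligand, IL11RA, was higher in the follicular phase. Its values were 5.50, 5.69, 6.93, 6.16 and 5.49 FPKM in luteal ovaries against 11.9, 11.9, 13.96, 10.2 and 17.3 in follicular ovaries, with no overlap between the phases (log2 fold change -1.10, standard error 0.13, limma adjusted p = 0.000103). Follicular phase replicate 5 was the highest. Of the gp130 cytokines under other symbols, OSM, the ligand oncostatin M, read 32.7, 29.5, 14.1, 22.3 and 22.8 FPKM in luteal ovaries against 2.29, 1.245, 1.03, 0.982 and 1.32 in follicular ovaries (log2 fold change 4.06, standard error 0.25, limma adjusted p = 8.49e-07). Its receptor chain OSMR ranged from 54.5 to 85.9 FPKM over the luteal ovaries and from 14.4 to 29.6 over the follicular ones (log2 fold change 1.94, standard error 0.18, limma adjusted p = 1.77e-05). LIF, leukemia inhibitory factor, was at 1.09 ± 0.984 FPKM in luteal and 0.371 ± 0.152 in follicular ovaries (log2 fold change 1.11, standard error 0.40, limma adjusted p = 0.0417). That call was lost without luteal phase replicate 1 (limma adjusted p = 0.0617) and without follicular phase replicates 1, 3 or 4 (at most 0.0914), and the log2 fold change was 0.72 without luteal phase replicate 2. LIFR, its receptor chain, changed by 0.58 (limma adjusted p = 0.0176).

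**Figure D3:**
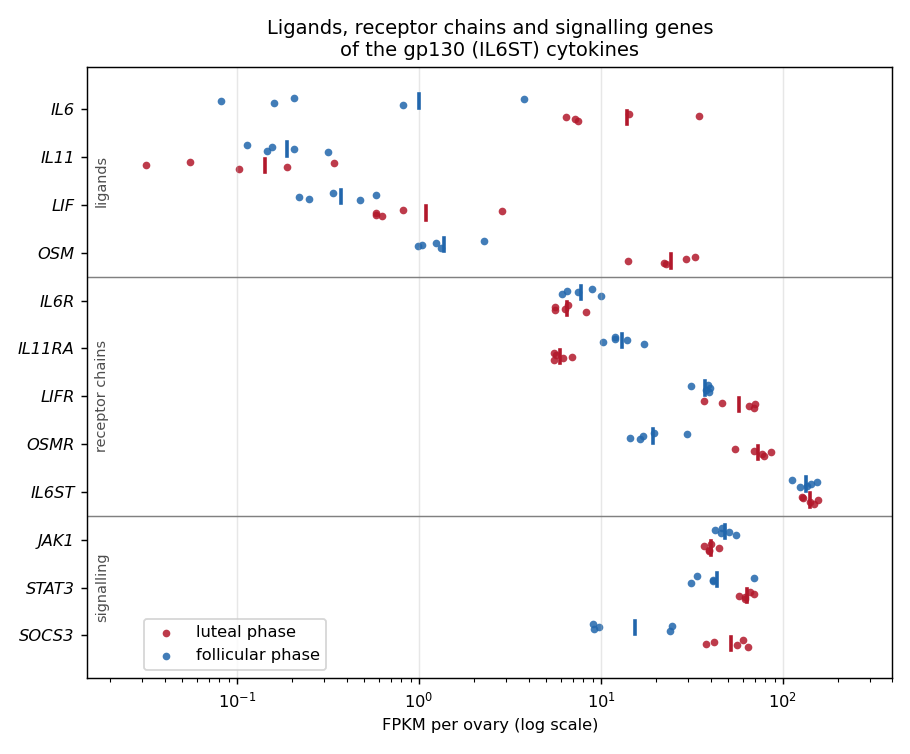
FPKM per ovary (x axis, log scale) of gp130 ligands, receptor chains and signalling genes; each point is 1 ovary, red for luteal and blue for follicular phase, and vertical strokes are means of 5 ovaries. IL6 and OSM separate the phases without overlap, IL11RA separates them in the opposite direction, and IL6ST and IL6R overlap.

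The IL-12 subunits and their receptor chains, and IL27, were low. IL27, which forms interleukin-27 with EBI3, read 0.386, 0.583, 0.563, 0.318 and 0.552 FPKM in luteal ovaries against 0.138, 0.190, 0.211, 0.214 and 0.281 in follicular ovaries. These values are low but did not overlap, and the change was called (log2 fold change 0.91, standard error 0.21, limma adjusted p = 0.00459). EBI3 itself was at 2.53 ± 0.270 FPKM in luteal and 1.73 ± 0.756 in follicular ovaries and was not called (limma adjusted p = 0.0780), although it was without follicular phase replicate 3 (0.0287) and on a quantile scale (0.0451). IL12A, a subunit of interleukin-12, ranged from 0.184 to 1.07 FPKM over the luteal ovaries and from 0.109 to 0.634 over the follicular ones and was not called (log2 fold change 1.00, standard error 0.42, limma adjusted p = 0.0748). Without luteal phase replicate 3 or follicular phase replicate 2 it was called (limma adjusted p = 0.0193 and 0.0187). IL23A, IL12RB1, IL12RB2 and IL23R had means under 1 FPKM in both phases, and none was called, with limma adjusted p from 0.252 to 0.622.

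Of 12 tested genes of the IL-1 family 4 were higher in luteal and 1 in follicular ovaries (33.3% and 8.33%, beside 15.9% and 27.8% of all tested genes). The ligands IL33 and IL18 were higher in the luteal phase, and IL1A and IL1B were not called. Most endothelial and luteal cell markers were higher in that phase too, and the cell source of these ligands was not tested. IL33, a nuclear alarmin that is released from damaged endothelial and other cells, read 33.5, 28.0, 39.2, 42.2 and 39.1 FPKM in luteal ovaries against 8.78, 4.93, 8.79, 8.08 and 15.6 in follicular ovaries. The lowest luteal phase ovary was well above the highest follicular phase ovary (log2 fold change 2.05, standard error 0.24, limma adjusted p = 8.68e-05). IL18, a ligand that is matured by caspase-1, read 8.55, 9.47, 10.04, 8.42 and 8.39 FPKM in luteal ovaries against 2.36, 1.36, 3.75, 2.73 and 3.82 in follicular ovaries. Its luteal phase values lay close together and did not overlap with the follicular phase (log2 fold change 1.73, standard error 0.23, limma adjusted p = 0.000220). IL1A had 4.27, 2.096, 1.86, 0.738 and 0.885 FPKM in luteal ovaries against 2.89, 3.34, 3.19, 2.96 and 3.88 in follicular ovaries. Here the follicular phase ovaries lay together, while luteal phase replicate 1 was above all of them and replicates 4 and 5 were the lowest (log2 fold change -0.95, standard error 0.38, limma adjusted p = 0.0609). The value without luteal phase replicate 1 was -1.28 (limma adjusted p = 0.00516), which passed the threshold. IL1B was at 1.16 ± 0.432 FPKM in luteal and 1.66 ± 0.439 in follicular ovaries (mean ± SD, n = 5 each; log2 fold change -0.52, standard error 0.25, limma adjusted p = 0.108), and it too passed without luteal phase replicate 1 (-0.68, limma adjusted p = 0.0366). The antagonist IL1RN, which blocks the IL-1 receptor, ranged from 0.472 to 2.56 FPKM over the luteal ovaries and from 0.876 to 2.00 over the follicular ones and was not called (log2 fold change -0.46, standard error 0.43, limma adjusted p = 0.404). Without luteal phase replicates 1 and 2 together it passed the threshold (-1.10, limma adjusted p = 0.0334).

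The receptors of these ligands did not move together. IL1R1, the signalling receptor of interleukin-1, read 25.6, 24.4, 25.4, 28.2 and 27.8 FPKM in luteal ovaries against 10.5, 24.4, 12.7, 12.1 and 13.3 in follicular ovaries. Luteal ovaries formed a narrow group, and follicular phase replicate 2 reached its lower end, far from the other follicular ovaries (log2 fold change 0.91, standard error 0.19, limma adjusted p = 0.00260). Without that ovary the log2 fold change was 1.11. IL1R2, the decoy receptor of interleukin-1, had 2.88, 3.16, 5.58, 4.65 and 3.63 FPKM in luteal ovaries against 0.962, 2.22, 0.865, 1.48 and 1.80 in follicular ovaries, with no overlap (log2 fold change 1.42, standard error 0.27, limma adjusted p = 0.00155). Its level was below that of IL1R1 in every ovary. IL1RAP, the shared accessory chain, was nearly level at 8.42 ± 0.533 FPKM in luteal and 7.67 ± 0.551 in follicular ovaries (mean ± SD, n = 5 each; log2 fold change 0.13, standard error 0.081, limma adjusted p = 0.203). It was called after a shift to a common median (0.22, limma adjusted p = 0.0362) and after quantile normalization (0.20, 0.0432). IL1RL1, the receptor of IL33, ranged from 0.756 to 2.45 FPKM over the luteal ovaries and from 1.06 to 1.61 over the follicular ones and was not called (log2 fold change -0.017, standard error 0.29, limma adjusted p = 0.967). IL18R1, which binds IL18, had 1.57, 1.45, 1.66, 1.46 and 1.34 FPKM in luteal ovaries against 2.19, 2.46, 2.47, 2.27 and 3.22 in follicular ovaries. It was lower in each luteal phase ovary than in any follicular phase ovary (log2 fold change -0.71, standard error 0.13, limma adjusted p = 0.00158), opposite in direction to its ligand. IL18RAP, its partner chain, stayed under 0.3 FPKM and IL18BP, a secreted protein that neutralizes IL18, was at 1.47 ± 0.346 FPKM in luteal and 1.53 ± 0.253 in follicular ovaries, and neither was called (limma adjusted p = 0.446 and 0.778). By the RefSeq gene order of goat assembly ARS1.2, IL1R2, IL1R1, IL1RL2, IL1RL1, IL18R1 and IL18RAP are adjacent protein-coding genes in this order. The first 2 of the run were higher in luteal ovaries and the fifth was higher in the follicular phase.

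**Figure D4:**
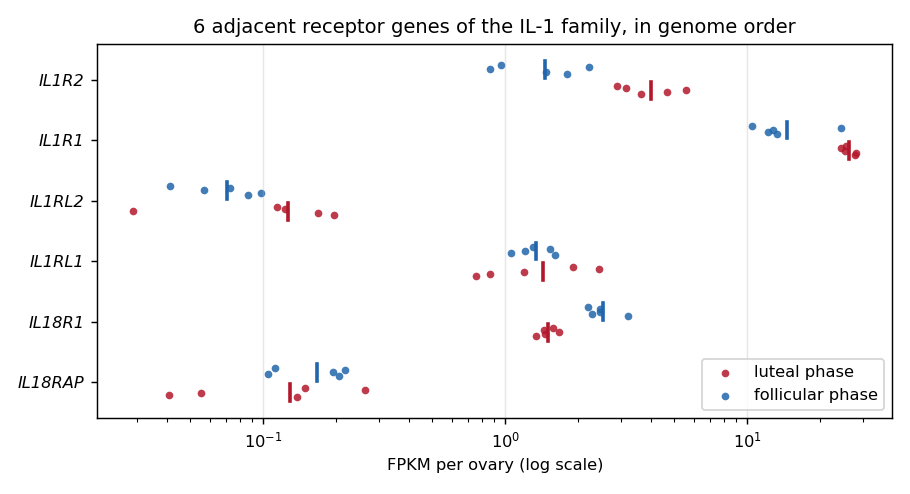
FPKM per ovary (x axis, log scale) of 6 IL-1 family receptor genes in their order along the chromosome; each point is 1 ovary, red for luteal and blue for follicular phase, and vertical strokes are means of 5 ovaries. The phases separate for IL1R2 and, in the opposite direction, for IL18R1, and IL1RL2 and IL18RAP are the lowest.

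Of the 11 tested genes grouped under the common gamma chain, 6 were higher in luteal ovaries and 1 in the follicular phase. These are 54.5% and 9.09%, beside 15.9% and 27.8% of all tested genes. The group includes the interleukin-13 receptors IL13RA1 and IL13RA2, which do not pair with that chain. IL13RA2, 1 of the 6, also lost its call under several alternatives. IL15RA, which holds interleukin-15 on the cell surface and presents it to neighbouring cells, changed most. It had 22.2, 26.4, 11.3, 15.3 and 16.1 FPKM in luteal ovaries against 2.35, 4.68, 2.67, 2.67 and 1.98 in follicular ovaries, and the phases were far apart (log2 fold change 2.63, standard error 0.25, limma adjusted p = 2.14e-05). Luteal phase replicates 1 and 2 were the highest. The ligand IL15 read 3.05, 3.47, 4.10, 4.41 and 3.78 FPKM in luteal ovaries against 2.17, 1.82, 2.59, 1.91 and 3.33 in follicular ovaries, and it was called with overlapping phases (log2 fold change 0.67, standard error 0.17, limma adjusted p = 0.00912). IL2RA, the chain that gives the interleukin-2 receptor its high affinity, read 5.38, 3.47, 2.44, 2.095 and 1.77 FPKM in luteal ovaries against 1.01, 0.632, 0.691, 0.662 and 1.22 in follicular ovaries. Luteal phase replicate 1 was the highest and the phases did not overlap (log2 fold change 1.66, standard error 0.29, limma adjusted p = 0.00106). IL15RA and IL2RA are adjacent genes in the RefSeq annotation. The shared chain IL2RG was not called, at 5.799, 4.72, 5.19, 5.81 and 5.01 FPKM in luteal ovaries against 4.53, 3.90, 4.79, 4.65 and 8.24 in follicular ovaries (log2 fold change 0.068, standard error 0.18, limma adjusted p = 0.772). Follicular phase replicate 5 was the highest of all ovaries for it.

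IL7, a survival factor of lymphocytes, and its receptor IL7R changed in opposite directions. IL7 had 2.90, 3.29, 5.95, 7.55 and 5.23 FPKM in luteal ovaries against 1.15, 1.89, 1.61, 1.52 and 2.39 in follicular ovaries. No luteal phase ovary was as low as the highest follicular phase ovary (log2 fold change 1.44, standard error 0.27, limma adjusted p = 0.00155). IL7R read 2.89, 5.03, 2.70, 3.13 and 3.51 FPKM in luteal ovaries against 5.35, 4.96, 5.51, 5.10 and 11.3 in follicular ovaries, and follicular phase replicate 5 was far above the rest (log2 fold change -0.84, standard error 0.24, limma adjusted p = 0.0148). Without that ovary the log2 fold change of IL7R was -0.62 (limma adjusted p = 0.01504). IL4R, the chain that binds interleukin-4, read 11.2, 12.9, 6.28, 8.02 and 8.99 FPKM in luteal ovaries against 4.59, 5.704, 4.20, 4.43 and 3.08 in follicular ovaries, without overlap (log2 fold change 1.07, standard error 0.20, limma adjusted p = 0.00165). IL13RA2, a decoy receptor of interleukin-13, had 0.290, 1.21, 1.34, 0.425 and 0.220 FPKM in luteal ovaries against 0.172, 0.197, 0.0645, 0.153 and 0.276 in follicular ovaries. Most of its luteal phase excess lay in replicates 2 and 3 (log2 fold change 1.32, standard error 0.43, limma adjusted p = 0.0283), and the call was lost without either of them (1.08 with limma adjusted p = 0.0652, and 1.04 with 0.0595). It was also lost without follicular phase replicates 1, 3 or 4 (limma adjusted p = 0.0502, 0.0671 and 0.0519). IL9R and IL21R stayed under 0.5 FPKM and were not called. The ligands IL2, IL4, IL9, IL13 and IL21 were below the filter.

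IL3RA, the specific chain of the interleukin-3 receptor, was the only tested gene of the common beta family. It read 9.21, 6.22, 2.73, 6.76 and 7.57 FPKM in luteal ovaries against 0.576, 0.569, 0.313, 0.286 and 0.267 in follicular ovaries. The lowest luteal phase ovary, replicate 3, was still well above every follicular phase ovary (log2 fold change 3.67, standard error 0.31, limma adjusted p = 8.53e-06). CSF2RB, the common beta chain with which it signals, was higher in the luteal phase too, ranging from 4.69 to 7.06 FPKM over the luteal ovaries and from 2.16 to 2.55 over the follicular ones (log2 fold change 1.20, standard error 0.12, limma adjusted p = 2.83e-05). IL5 and IL5RA were below the filter.

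For the IL-10 family the 2 chains of the interleukin-10 receptor were higher in the luteal phase. IL10RB, which interleukin-22 and the lambda interferons also use, had 25.7, 34.9, 33.7, 32.3 and 32.0 FPKM in luteal ovaries against 19.7, 25.0, 23.7, 24.7 and 27.9 in follicular ovaries, with an overlap between luteal phase replicate 1 and follicular phase replicate 5 (log2 fold change 0.39, standard error 0.11, limma adjusted p = 0.0121). IL10RA, the chain specific for interleukin-10, read 5.91, 6.23, 5.36, 4.93 and 5.37 FPKM in luteal ovaries against 2.70, 2.24, 3.10, 2.32 and 4.61 in follicular ovaries, without overlap (log2 fold change 0.92, standard error 0.18, limma adjusted p = 0.00198). The ligand IL10, an anti-inflammatory cytokine, was low, from 0.2502 to 0.437 FPKM over the luteal ovaries and from 0.116 to 0.257 over the follicular ones, and was not called (log2 fold change 0.54, standard error 0.21, limma adjusted p = 0.0560). On a common median, quantile or TPM scale IL10 passed the threshold, at 0.63, 0.71 and 0.72 (limma adjusted p = 0.0404, 0.0237 and 0.0416). IL22RA1, a receptor chain of epithelial cells, ranged from 0 to 0.149 FPKM over the luteal ovaries and from 0.0590 to 0.259 over the follicular ones and was called as higher in the follicular phase (log2 fold change -0.92, standard error 0.31, limma adjusted p = 0.0338). That call was lost without luteal phase replicate 2, 4 or 5 (limma adjusted p = 0.0673, 0.0797 and 0.0802), and on a common median or quantile scale (0.0586 and 0.0635). With a pseudocount of 1 the log2 fold change was -0.17 (limma adjusted p = 0.0554), and without luteal phase replicates 1 and 2 together it was -0.93 (0.0852), neither of them called. IL22RA1 reached 0.1 FPKM in 5 ovaries, and luteal phase replicate 3 was the only luteal one among them. It thus passed the filter mainly through the phase where it was called higher, and its call carries that limit. IL20RB was not called (log2 fold change 1.19, standard error 0.52, limma adjusted p = 0.0845). Its luteal values were 0.122, 0.237, 0.342, 1.62 and 1.34, where replicates 4 and 5 stood apart, and no follicular ovary exceeded 0.256. IL19 and IL20RA stayed under 0.4 FPKM and were not called. Without luteal phase replicate 1, IL20RB passed the threshold (1.55, limma adjusted p = 0.0237).

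In the IL-17 family 4 of the 8 tested genes were higher in the follicular phase and 1, the shared receptor chain IL17RA, in the luteal phase. The luteal and follicular shares were 12.5% and 50%, beside 15.9% and 27.8% of all tested genes, and IL17RB, 1 of the 4, lost its call under several alternatives. IL17RA read 18.1, 14.3, 13.0, 16.0 and 20.7 FPKM in luteal ovaries against 9.69, 13.8, 11.8, 9.57 and 6.74 in follicular ovaries, and only luteal phase replicate 3 lay below follicular phase replicate 2 (log2 fold change 0.68, standard error 0.18, limma adjusted p = 0.0115). IL17D, a secreted member of the family, ranged from 1.31 to 2.05 FPKM over the luteal ovaries and from 2.87 to 3.87 over the follicular ones, without overlap (log2 fold change -0.93, standard error 0.16, limma adjusted p = 0.000826). IL17RD, which is known as an inhibitor of fibroblast growth factor signalling, ranged from 2.00 to 2.70 FPKM over the luteal ovaries and from 2.83 to 4.08 over the follicular ones, also without overlap (log2 fold change -0.55, standard error 0.13, limma adjusted p = 0.00595). IL25, a ligand of type 2 immune responses, was low. Its values were 0.273, 0.304, 0.190, 0.141 and 0.129 FPKM in luteal ovaries against 0.349, 0.277, 1.08, 0.6998 and 0.515 in follicular ovaries, overlapping only where luteal phase replicate 2 exceeded follicular phase replicate 2 (log2 fold change -1.07, standard error 0.31, limma adjusted p = 0.0174). IL17RB, a receptor chain of IL25, ranged from 0.0364 to 0.258 FPKM over the luteal ovaries and from 0.113 to 0.609 over the follicular ones (log2 fold change -0.99, standard error 0.35, limma adjusted p = 0.0394). The call for IL17RB did not hold without luteal phase replicates 1, 2, 3 or 5 or follicular phase replicates 1, 3, 4 or 5, where the limma adjusted p ran from 0.0503 to 0.0894, nor on a common median, quantile or TPM scale (0.0602, 0.0773 and 0.0552). Its leading transcript alone changed by -0.026. IL17RC, the partner of IL17RA for interleukin-17A and F, was at 6.46 ± 0.728 FPKM in luteal and 5.50 ± 0.462 in follicular ovaries (mean ± SD, n = 5 each) and was not called (log2 fold change 0.23, standard error 0.10, limma adjusted p = 0.0929), though it was on a common median or quantile scale (0.31 and 0.32, limma adjusted p = 0.0209 and 0.0167). IL17B and IL17RE were not called either (limma adjusted p = 0.0752 and 0.0606), and the threshold was passed when luteal phase replicate 3 was left out for IL17B (-1.08, 0.0369) and replicate 2 for IL17RE (-0.56, 0.0278).

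No call was made for IL16, IL34 or IL4I1. IL34, a ligand of the macrophage growth factor receptor CSF1R, was at 1.35 ± 0.409 FPKM in luteal and 1.39 ± 0.534 in follicular ovaries (mean ± SD, n = 5 each; log2 fold change -0.013, standard error 0.33, limma adjusted p = 0.979). The other ligand of that receptor, CSF1, and CSF1R itself were higher in the luteal phase (log2 fold change 1.00 and 0.95, limma adjusted p = 0.00118 and 0.00998). IL16, a chemoattractant of CD4 cells, was at 1.07 ± 0.179 FPKM in luteal and 0.904 ± 0.457 in follicular ovaries (log2 fold change 0.31, standard error 0.26, limma adjusted p = 0.362). IL4I1 ranged from 0.785 to 1.44 FPKM over the luteal ovaries and from 0.0801 to 1.78 over the follicular ones, and follicular phase replicates 2 and 4, at 0.0801 and 0.117, were far below the others (log2 fold change 0.92, standard error 0.61, limma adjusted p = 0.239).

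The filter removed 25 of the 79 genes, 18 of the 36 ligands and 5 of the 36 receptor chains among them. IL36B was listed at 0 in all 10 ovaries, another 13 were above 0 in 1 to 4 ovaries, and no value of the 25 exceeded 0.325 FPKM. They include the T cell products IL2, IL4, IL5, IL9, IL13, IL17A, IL17F, IL21 and IL22. The others are the IL-1 family genes IL36RN, IL1F10, IL37, IL1RAPL2 and IL1RL2, the IL-10 family genes IL20, IL24, IL26 and IL22RA2, which codes for a binding protein of interleukin-22, and IL12B, IL17C, IL17REL, IL31RA, IL5RA and IL32. Read counts were not used here, so these values do not show that the genes were silent.

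The values above are sums over transcripts, and 30 of the 79 genes had more than 1 transcript. Tested singly, 89 of the 170 transcripts passed the filter and 27 were called, 22 of them higher in the luteal phase. The called share was 30.3% of those tested, beside 17.3% of all 32842 tested transcripts. Of all tested transcripts, 7.47% were higher in luteal ovaries and 9.82% in the follicular phase. The 32842 include non-coding transcripts, so these shares compare unlike sets, and the share of protein-coding transcripts alone was not computed. No called transcript went against the direction of its gene. IL13RA2, IL17RB, IL22RA1 and IL25 were called as genes but had no called transcript. All 4 transcripts of IL15RA were called, with XM_018056949.1 changing by 3.27 and XM_018056948.1 by 1.85 (limma adjusted p = 0.000324 and 0.0482). For IL1R1, transcript XM_005686294.3 read 15.5, 16.4, 15.9, 19.5 and 17.8 FPKM in luteal ovaries against 3.53, 7.41, 3.01, 5.39 and 3.38 in follicular ovaries, without overlap (log2 fold change 1.96, standard error 0.23, limma adjusted p = 0.000351). A second transcript, XM_005686296.3, had 2.63, 1.98, 1.66, 0.0154 and 0.0238 FPKM in luteal ovaries against 2.96, 9.31, 3.63, 4.04 and 5.26 in follicular ovaries, the opposite direction, and was not called (log2 fold change -2.81, standard error 0.95, limma adjusted p = 0.0682). The share of IL1R1 held by the first was 64.8 ± 3.52% in luteal and 31.5 ± 8.19% in follicular ovaries (mean ± SD, n = 5 each; two-sided exact permutation p = 0.00794, the smallest that 5 against 5 allow). The share of the leading transcript was compared in 12 genes, and the Benjamini-Hochberg adjusted value for IL1R1 was 0.0635, as it was for IL15RA and IL3RA, so none of the 12 passed 0.05. Over 12 genes, 1 gene alone at that smallest p could not pass, so this outcome was partly set by the number of ovaries. The high follicular phase replicate 2 of IL1R1 held 9.31 FPKM of XM_005686296.3, the most of any ovary. For IL33, follicular phase replicate 5 had 0 for the leading XM_013965943.2 and 11.6 for XM_005683683.3, while its sum was the highest of the follicular phase. With the leading transcript in place of the sum, the log2 fold change of IL33 was 3.66. Reads shared by transcripts of a gene are divided by estimation, and how that divided them here was not tested.

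**Figure D5:**
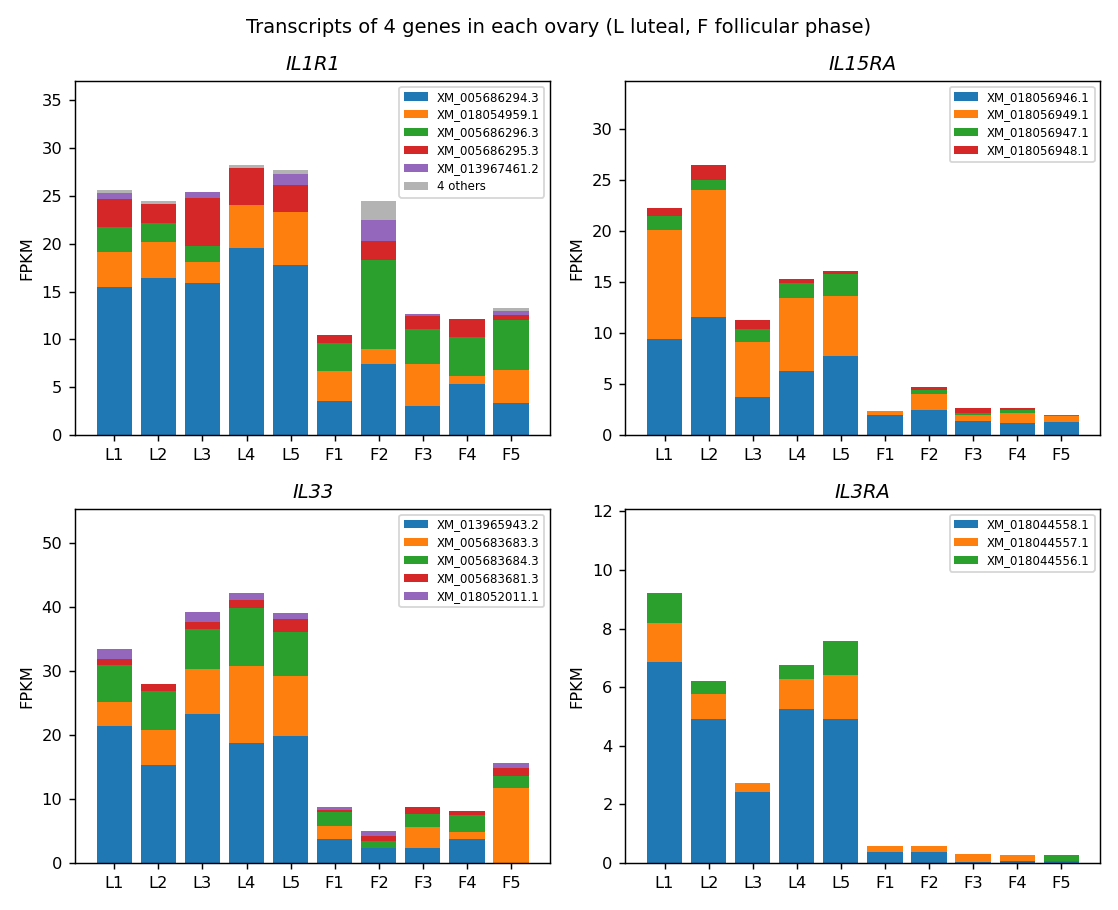
FPKM (y axis, linear) of each transcript of IL1R1, IL15RA, IL33 and IL3RA stacked per ovary, L1 to L5 being luteal and F1 to F5 follicular phase replicates; colours are transcripts. The leading transcript fills most of IL1R1 and IL3RA in the luteal phase, and the bars of IL15RA, IL33 and IL3RA are taller in each luteal phase ovary than in any follicular phase ovary.

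In a list of JAK kinases, STAT factors and their inhibitors, all 25 genes in the table were tested, 5 were higher in luteal ovaries and 7 in the follicular phase, and the median log2 fold change was 0.011, beside -0.14 over all genes. These shares, 20.0% and 28.0%, were near the 15.9% and 27.8% of all tested genes, so the count says nothing particular of the pathway. SOCS3, a feedback inhibitor that gp130 signalling induces, read 60.0, 41.9, 37.7, 55.8 and 64.2 FPKM in luteal ovaries against 8.997, 24.6, 9.73, 9.15 and 24.1 in follicular ovaries. It was higher in each luteal phase ovary, and follicular phase replicates 2 and 5 were the highest of their phase (log2 fold change 1.89, standard error 0.31, limma adjusted p = 0.000766). STAT4, which acts after interleukin-12, and SOCS1 were higher in the luteal phase by 1.22 and 1.07 (limma adjusted p = 0.00230 and 0.00557). STAT3, the main STAT of gp130, ranged from 57.1 to 69.5 FPKM over the luteal ovaries and from 31.3 to 69.6 over the follicular ones, with follicular phase replicate 2 the highest of all ovaries and replicate 5 the lowest (log2 fold change 0.60, standard error 0.18, limma adjusted p = 0.0185). JAK3, the kinase of the common gamma chain, was lower in the luteal phase, at 7.46 ± 2.72 FPKM in luteal and 17.98 ± 4.15 in follicular ovaries (mean ± SD, n = 5 each; log2 fold change -1.30, standard error 0.23, limma adjusted p = 0.00117). STAT5B and SOCS6 were lower there as well, at log2 fold changes of -0.60 and -0.38 (limma adjusted p = 0.00126 and 0.00128).

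Of 28 adaptors, kinases and NF-kappa-B factors of the IL-1 and IL-17 receptors, 4 were higher in luteal ovaries and 8 in the follicular phase, with a median log2 fold change of 0.016. The called share of 42.9% was close to that of all tested genes, 43.7%. SIGIRR, an inhibitory receptor of the IL-1 family, changed by 0.77, TNFAIP3, an inhibitor of NF-kappa-B, by 0.66 and IKBKG by 0.32 (limma adjusted p = 0.00445, 0.0478 and 0.0267). TRAF5, TAB3 and NFKBIA were the largest calls in the other direction, by -0.60, -0.39 and -0.38 (limma adjusted p = 0.0301, 0.00693 and 0.0336). Of these 6, TNFAIP3, IKBKG, TRAF5 and NFKBIA each lost the call when single ovaries were left out, and TRAF5 and NFKBIA also on a common median scale (limma adjusted p = 0.0612 and 0.0711). The 12 calls fell to 6 without luteal phase replicate 2 or 4, 7 without luteal phase replicate 5, 5 without follicular phase replicate 1, 6 without follicular phase replicate 3 and 7 without follicular phase replicate 4. Among cytokine and receptor genes under other symbols, 8 of 19 were higher in luteal ovaries and 0 in the follicular phase. The total, 42.1%, was close to the 43.7% of all tested genes, of which 15.9% were higher in luteal and 27.8% in follicular ovaries. OSM, OSMR and CSF2RB changed most among those called. CXCL8, a neutrophil chemokine also known as interleukin-8, was not called, with 6.27, 6.26, 0.853, 1.14 and 0.943 FPKM in luteal ovaries against 2.06, 9.53, 6.11, 8.90 and 8.72 in follicular ovaries (log2 fold change -1.54, standard error 0.63, limma adjusted p = 0.0684), and passed without luteal phase replicate 1 or 2 or follicular phase replicate 1 (0.0272, 0.0282 and 0.0292). Of 4 tested inflammasome genes, GSDMD, which forms the pore through which IL-1 family ligands leave the cell, and NLRC4 were higher in the luteal phase (log2 fold change 1.15 and 0.79, limma adjusted p = 0.000114 and 0.0186). The call for GSDMD was lost when only its leading transcript was used (0.74, limma adjusted p = 0.127).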

How the data were processed

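Each ovary gave 1 strand-specific library after removal of rRNA. The authors mapped its paired reads by HISAT2, built transcripts by StringTie, and deposited the FPKM of every transcript from Cuffdiff, without pooling ovaries. The genome build is not given in the sources used here. The depth per ovary is unknown, because read counts were not used here, and the spread between ovaries is the only measure of precision. FPKM summed to between 452508 and 540124 per ovary.

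FPKM of protein-coding transcripts were summed per symbol, and genes or transcripts with at least 0.1 in at least 5 ovaries were compared, luteal minus follicular and two-sided, on log2(FPKM + 0.1) with limma 3.58.1 (lmFit, eBayes with trend) in R 4.3.3. This scale understates the change of low genes. Adjustment was by Benjamini-Hochberg across every feature tested, and an adjusted p under 0.05 was a call. Shares of the leading transcript were compared by exact permutation (scipy 1.17.1). Members named by rule, with values per ovary or ranges, are the 12 called with the largest change, the 6 with the highest level and partners in their receptor complexes. Other members are given by means, ranges or counts. Of the pathway lists the 3 largest calls per direction are named. Genes outside these rules (CXCL8, STAT3, the ovaries of IL20RB and IL4I1, and the cell markers) were named after their values were seen, as were the transcript shares. The members and lists were chosen with earlier results of these data known. All 79 members were matched by gene ID to the RefSeq table of ARS1.2, which was used only for neighbours. Alternatives were other pseudocounts (1, 0.01), no filter or a minimum of 0.5, the TPM, quantile and common median scales, no trend in eBayes, the leading transcript only, a replicate block, and leaving out ovaries.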

Additional observations from a re-analysis of the deposited data

Results flagged for a closer look

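For each tested gene and phase, it was asked whether the highest or lowest of the 5 ovaries lay far from the other 4 (the gap to the nearest ovary over the range of the phase, beyond Dixon's critical value). On FPKM this held in 13 of 108 groups. Chance gives about 1 in 20 for independent, normally distributed values, which these are not shown to be, since all genes share the same ovaries. On log2(FPKM + 0.1), tried after seeing these values, 8 groups met it, and 6 of the 13 were among them: IL1R1, IL2RG, IL7R, IL12RB1, IL19 and IL34. Neither IL6 value was. Follicular phase replicate 2 stood apart for IL6 at 3.75 FPKM (the others 0.0817 to 0.819), for IL1R1 at 24.4 FPKM (the others 10.5 to 13.3), for IL15RA at 4.68 FPKM (the others 1.98 to 2.67) and for IL12A at 0.634 FPKM (the others 0.109 to 0.239), each time above its phase and toward the luteal phase. Follicular phase replicate 5 stood above its phase for IL7R at 11.3 FPKM (the others 4.96 to 5.51) and for IL2RG at 8.24 FPKM (the others 3.90 to 4.79). It did so too for IL18R1 at 3.22 FPKM (the others 2.19 to 2.47) and for IL23R at 0.694 FPKM (the others 0.138 to 0.265). The leukocyte marker PTPRC was highest in the same ovary, at 16.7, but the leukocyte markers CD48, LCP1 and SPI1 were not. Luteal phase replicate 2 was high for IL6 at 34.6 FPKM (the others 6.39 to 14.2) and low for IL34 at 0.627 FPKM (the others 1.42 to 1.62), IL12RB1 at 0.126 FPKM (the others 0.269 to 0.2997) and IL19 at 0 FPKM (the others 0.0805 to 0.109). Luteal phase replicate 3 was high for IL16 at 1.37 FPKM (the others 0.900 to 1.02).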

How the results depend on the processing

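Of the 24 called members, 21 were called under every alternative run for them, 15 higher in the luteal and 6 in the follicular phase. IL13RA2, IL17RB and IL22RA1 lost the call under some. Under none of them was a member called in the opposite direction. Of the 30 members not called, 12 were called under at least 1 alternative. The count of 24 lay between 21 and 26 when each ovary was left out in turn, with 15 and 17 higher in the luteal and 6 and 9 in the follicular phase. With a minimum FPKM of 0.5, 5 rather than 8 were higher in the follicular phase, with fewer genes tested. The luteal share of all called genes was 36.3%, against 48.8% after a common median and 52.1% on the TPM scale, and over the members it was 66.7%, 76.0% and 70.8%. Called member transcripts lay between 18 and 26, JAK and STAT list calls between 9 and 13 and the 10 calls among 23 cytokine genes under other symbols and inflammasome genes, counted together, between 9 and 11 without single ovaries. The 12 calls of the IL-1 and IL-17 signalling list were between 5 and 10 without single ovaries, 4 with the leading transcript only, 4 without luteal phase replicates 1 and 2 and 7 without follicular phase replicates 2 and 5. These joint omissions were chosen after seeing the data and gave 26 and 24 called members, with IL13RA2, IL17RB and IL22RA1 not called in the first. JAK1, called at -0.26, was at 0.047 with the leading transcript only, where the sum is replaced by 1 of its transcripts. Where not stated, the cause was not tested. A pseudocount of 1 lowered the change of low genes, as for IL6 to 2.88, IL2RA to 1.07, IL13RA2 to 0.48, IL25 to -0.37, IL17RB to -0.26, IL22RA1 to -0.17, IL3RA to 2.35 and IL27 to 0.29. A replicate block gave 26 called members, 17 and 9 by direction, and 21 called transcripts. The blocked calls differed by the loss of IL13RA2 (limma adjusted p = 0.0549) and the gain of IL12A, IL20RB and IL6R. The labels do not pair the numbers. Deviations of equally numbered ovaries correlated with r from 0.0258 to 0.199 across genes, and 2 of the 5 luteal phase ovaries correlated best with their own number.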
